A study of Mus musculus with 4 samples.

Results

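Autophagy and mitophagy genes were followed in cultured mouse erythroblasts whose Setd8 level had been lowered and in erythroblasts at the start of maturation. The set held 35 genes of 23234 in the deposited table, all found under their own names. They were chosen by name for their place in the pathway, with earlier results of these data known. They code for the kinases that start an autophagosome, the enzymes that attach Atg8 proteins to its membrane, the Atg8 proteins, the receptors that bring cargo and mitochondria to it, the transcription factor Foxo3 and the ubiquitin ligase Trim58. At least 1 FPKM (sequenced fragments per transcript length in kilobases, adjusted for library size) was reached in 1 or more libraries by 33 of the 35, called measured below. Atg10 and Trim58 were not measured in this sense.

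The cells were ESREs (erythroblasts with extensive self-renewal), red cell precursors grown from early mouse fetuses, which keep dividing in culture and can be made to mature. The libraries used came from proliferating cells with an shRNA targeting Setd8, from cells with a non-targeting shRNA (scramble control) placed in maturation medium for 6 h, and from proliferating cells with a non-targeting shRNA. Every library therefore came from cells carrying an shRNA, and each group had 1 library. Knockdown cells in maturation medium were not analysed here. The labels do not say how many hairpins, clones or cultures a library stands for.

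Macroautophagy encloses cytoplasm in a double membrane, the autophagosome, and delivers it to the lysosome. Its selective form for mitochondria, mitophagy, uses receptors on the mitochondrial surface that bind Atg8 proteins. Red cell precursors depend on it late in maturation: mouse reticulocytes that lack the receptor Bnip3l or the kinase Ulk1 keep mitochondria that are normally removed. Setd8 is the enzyme that monomethylates histone H4 at lysine 20.

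Setd8 stood at 9.28 FPKM in the knockdown, 25.9 FPKM in the maturing control and 25.1 FPKM in the proliferating control, and its q for the knockdown was 0.0122 in the authors' deposited table. The 11 erythroid markers were detected in every library. They summed to 735 FPKM in the knockdown, 3336 FPKM in the maturing control and 2054 FPKM in the proliferating control. Globin rows made up most of each sum, and Hba-a2 and Hbb-b2 entered both alone and in rows naming several genes. Against the proliferating control, 10 of the 11 were lower in the knockdown, and Gata1 was higher at 61.1 against 52.8 FPKM. The 8 mast cell and basophil markers summed to 449.8, 33.7 and 54.2 FPKM in the knockdown, maturing control and proliferating control. Hdc alone, at 276.8, 28.7 and 42.5 FPKM, made up most of each sum. All 7 measured markers of this list were higher in the knockdown than in the proliferating control. Cpa3 and Fcer1a were not called in that comparison in the authors' deposited table. Of the 8 markers, 0 were at 0 in any library. The 6 megakaryocyte and platelet markers summed to 23.6, 8.73 and 14.6 FPKM, with Ppbp at 0 throughout. Summed markers of macrophages and monocytes, granulocytes, lymphocytes, and fibroblasts and endothelium stayed at or below 2.40 FPKM per list. In bulk RNA, fewer cells of a type and less RNA per cell cannot be told apart.

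Gabarap was the most abundant transcript of the set in every library. It codes for an Atg8 protein that acts late in autophagosome formation, and stood at 95.4 FPKM in the knockdown, 98.6 FPKM in the maturing control and 81.8 FPKM in the proliferating control, above 97.3%, 97.5% and 96.9% of the 9611 measured genes. The cargo receptor Sqstm1 (p62) stood at 34.1, 34.6 and 27.0 FPKM in these libraries, and the mitophagy receptor Bnip3l (Nix) at 16.3, 32.3 and 28.9 FPKM. The 5 Atg8 genes together held 52.4%, 49.7% and 49.4% of the FPKM summed over the set in the knockdown, maturing control and proliferating control.

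Most of the set lay far lower. The median measured member stood at 3.68 FPKM in the knockdown, 4.47 FPKM in the maturing control and 3.95 FPKM in the proliferating control, against 5.17, 5.39 and 5.31 FPKM for the median measured gene. At least 10 FPKM was reached by 7 members, which besides Gabarap, Sqstm1 and Bnip3l were Map1lc3b, Gabarapl1, Gabarapl2 and Becn1. At the low end, the E2-like enzyme Atg10 stood at 0.706, 0.678 and 0.503 FPKM, and Trim58 at 0.00388, 0.164 and 0.0720 FPKM, each in the order knockdown, maturing control, proliferating control. Levels of a member were close between libraries. The highest library exceeded the lowest by a median of 1.26 times over the measured members, against 1.34 times over all measured genes. By this measure 23 of the 33 stayed under 1.5 times, and Wipi1, Atg4c and Atg4b exceeded 2 times, which is 9.09% of the measured members against 16.7% of measured genes.

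**Figure D1:**
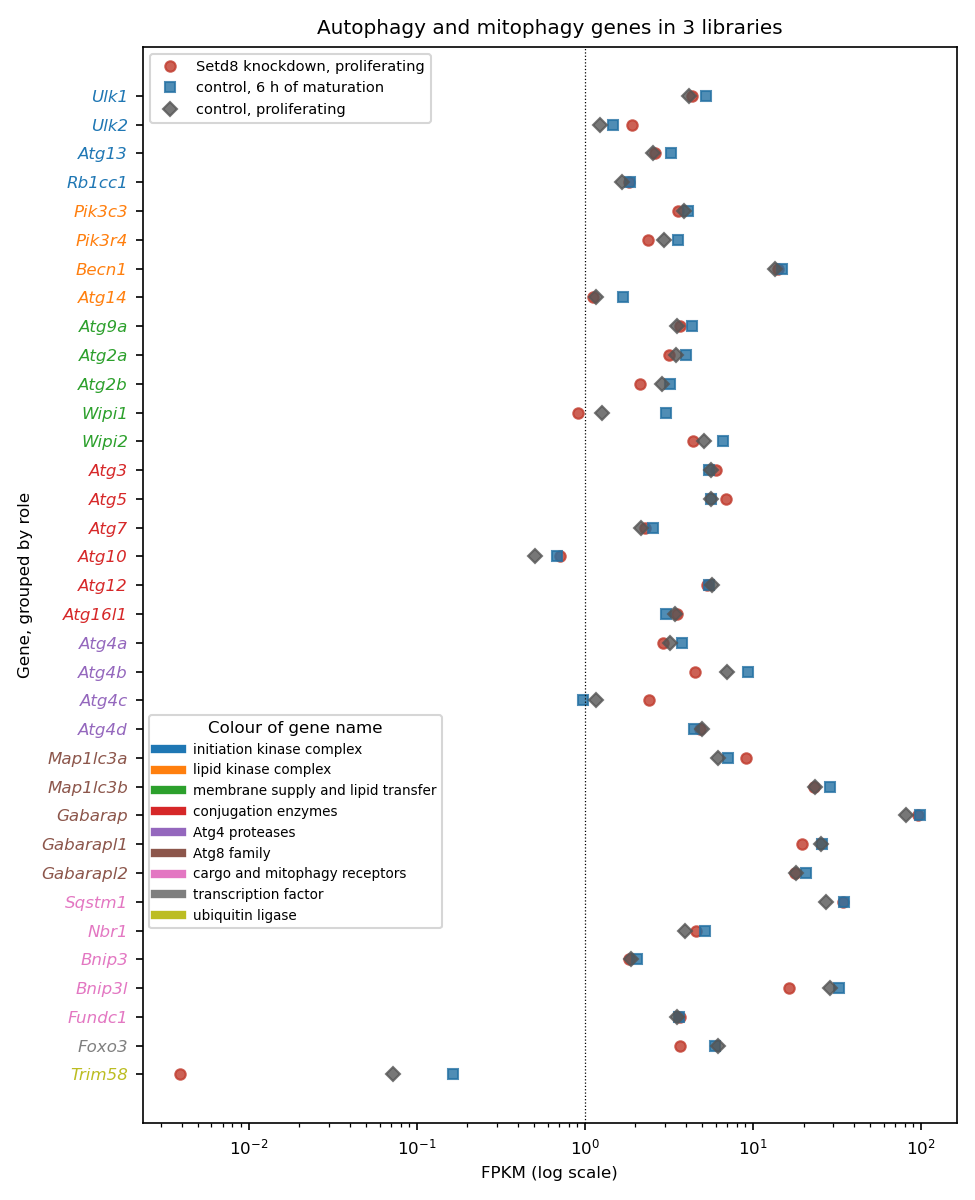
Level of each of the 35 genes in FPKM (log scale, horizontal axis), with genes grouped by role down the vertical axis; circles are the Setd8 knockdown, squares the maturing control and diamonds the proliferating control, 1 library each, and the dotted line is 1 FPKM. Gabarap lies farthest right at 81.8 to 98.6 FPKM, and Bnip3l, Foxo3, Atg4b, Atg4c and Wipi1 have the visibly separated symbols among measured genes.

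Set against proliferating control cells, the Setd8 knockdown had no member of the set that was called changed. Of the 34 members tested in the authors' deposited table, 0 had a q-value (adjusted p) at or below 0.05, against 9.05% of the 11665 genes tested. Without adjustment, 1 member, Bnip3l, had a deposited p below 0.05, against 14.7% of genes tested. Trim58, which the authors' deposited table marks as not tested in this comparison, is left out of both counts although the table lists a p of 0.00795 for it. Measured members were nearly evenly divided, 16 with a higher and 17 with a lower value in the knockdown, and 48.5% against 44.3% of all measured genes had a higher one. That split depended on the scaling of the libraries. It was 22 to 11 when abundant genes were centred, 20 to 13 on the TPM scale and 18 to 15 with equal upper quartiles. Members with a higher value then made up 66.7%, 60.6% and 54.5%, against 54.0%, 49.6% and 47.6% of all measured genes. The median log2 ratio of FPKM + 1 was -0.019 over measured members and -0.045 over all measured genes. No measured member reached a 2-fold difference on this scale, a size found in 6.98% of measured genes. A log2 ratio at least 0.6 from 0 was held by 3 members, Bnip3l, Atg4c and Foxo3, and by 14.7% of measured genes.

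Precision was limited. The standard error implied by the authors' test had a median of 0.50 on the log2 scale over tested members, with a range of 0.40 to 0.67. The 95% interval of the ratio lay within 2-fold either way for 4 of the 34 tested members and within 4-fold for 33. Of genes whose higher value in the pair lay between 2 and 100 FPKM, the smallest difference the authors called was 2.26-fold. Smaller differences of members in that range could therefore have been missed in a pair of single libraries. Some members, such as Ulk2 and Wipi1, lay below that range, and no such size was found for them. The errors come from the authors' model and not from replicates.

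The receptor Bnip3l had the lowest knockdown value relative to control among measured members. It lies at chr14:67604076-67627714 (mm9, as deposited) and codes for the outer mitochondrial membrane protein that marks mitochondria for removal from reticulocytes. It stood at 16.3 FPKM in the knockdown, 32.3 FPKM in the maturing control and 28.9 FPKM in the proliferating control. The knockdown library stood apart from both controls and held 56.5% of the proliferating control level. The authors' deposited table gave a log2 ratio of -0.82 ± 0.40 (model standard error), a p of 0.0414 and a q of 0.337, so it was not called. Its relative Bnip3, a receptor induced by low oxygen, stood at 1.82, 2.04 and 1.88 FPKM in the same libraries. Bnip3l was thus 8.95 times the level of Bnip3 in the knockdown, against 15.8 times in the maturing control and 15.4 times in the proliferating control. Fundc1, another receptor of the outer mitochondrial membrane, was at 3.67 FPKM in the knockdown, 3.62 FPKM in the maturing control and 3.52 FPKM in the proliferating control, the narrowest range of the set.

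Foxo3, a transcription factor that in mouse erythroblasts acts on antioxidant and autophagy genes, lies at chr10:41905591-41996548. It had 3.68 FPKM in the knockdown, 5.97 FPKM in the maturing control and 6.18 FPKM in the proliferating control. As for Bnip3l, the knockdown value was the low one and the controls were close. The authors' deposited table gave a log2 ratio of -0.75 ± 0.50 (q 0.723). Erythroid markers were lower for 10 of 11 genes and mast cell markers higher in the same library, as given above. Their part in the Bnip3l and Foxo3 values was not tested.

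Atg4 proteases trim newly made Atg8 proteins and later free them from membrane lipid, and the 4 genes had no common direction. Atg4b (chr1:95651609-95686106), the most active of the family on Atg8 proteins, had 4.54 FPKM in the knockdown, 9.39 FPKM in the maturing control and 6.99 FPKM in the proliferating control. Atg4c (chr4:98860624-98926478) had 2.41 FPKM in the knockdown, 0.974 FPKM in the maturing control and 1.16 FPKM in the proliferating control. Atg4b was lowest and Atg4c highest in the knockdown. For the knockdown against the proliferating control, the authors' deposited table gave Atg4b a log2 ratio of -0.62 ± 0.48 with a q of 0.865. For Atg4c it gave a log2 ratio of 1.05 ± 0.61 with a q of 0.540. The level of Atg4b was 1.89 times that of Atg4c in the knockdown, against 9.64 times in the maturing control and 6.02 times in the proliferating control. This pair was singled out after its values were seen. Atg4a stood at 2.93, 3.77 and 3.20 FPKM and Atg4d at 4.87, 4.47 and 4.99 FPKM, in the order knockdown, maturing control, proliferating control. The deposited locus of Atg4d is shared with Kri1, and no use of strand is stated, so fragments of the overlapping genes may not be separable.

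Among Atg8 genes, Gabarap included, each knockdown level was within 1.5 times that of the proliferating control. Map1lc3b, the LC3 form most often used to follow autophagosomes, stood at 23.2 FPKM in the knockdown, 28.8 FPKM in the maturing control and 23.6 FPKM in the proliferating control. Map1lc3a stood at 9.13, 7.12 and 6.18 FPKM, highest in the knockdown. Gabarapl1 stood at 19.5, 25.7 and 25.3 FPKM, lowest in the knockdown. For Map1lc3a and Gabarapl1 the authors' deposited table gave log2 ratios of 0.56 ± 0.54 and -0.37 ± 0.43 in the knockdown, each close to or below its error. Gabarapl2, at 17.7, 20.6 and 18.0 FPKM, completed the family. As deposited 2 of the 5 Atg8 genes had a higher knockdown value, and 4 of the 5 did under each other scaling.

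No initiation gene differed by 2-fold in the knockdown. The initiation kinase Ulk1 stood at 4.35 FPKM in the knockdown, 5.23 FPKM in the maturing control and 4.17 FPKM in the proliferating control. Its paralogue Ulk2 stood at 1.91, 1.48 and 1.23 FPKM, with a log2 ratio of 0.63 ± 0.53 in the knockdown and a q of 0.938 in the authors' deposited table. Their partners Atg13 and Rb1cc1 (Fip200) stood at 2.63 and 1.82 FPKM in the knockdown, against 2.55 and 1.66 FPKM in the proliferating control. All 4 genes of this complex had a higher knockdown value as deposited, with log2 ratios of FPKM + 1 between 0.03 and 0.38. Of all measured genes, 44.3% had a higher one. Each other scaling raised knockdown values relative to the control, so none could have reversed these 4 directions.

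In the lipid kinase complex, which makes the membrane lipid that recruits later factors, the catalytic subunit Pik3c3 stood at 3.60 FPKM in the knockdown, against 3.87 FPKM in the proliferating control. The scaffold Becn1 stood at 14.1 FPKM in the knockdown, against 13.5 FPKM in the proliferating control, the autophagy-specific subunit Atg14 at 1.12 and 1.17 FPKM, and the regulatory subunit Pik3r4 at 2.37 and 2.94 FPKM. Of the genes for membrane supply and lipid transfer, 4 of 5 had a lower knockdown value under every scaling tried. Atg2b, a lipid transfer protein, stood at 2.13 FPKM in the knockdown, against 2.87 FPKM in the proliferating control, and its paralogue Atg2a at 3.18 and 3.51 FPKM. The scramblase Atg9a was the exception at 3.66 FPKM in the knockdown, against 3.51 FPKM in the proliferating control.

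The conjugation enzymes attach Atg12 to Atg5 and Atg8 proteins to lipid. Atg7, the E1-like enzyme of both reactions, stood at 2.29 FPKM in the knockdown, against 2.16 FPKM in the proliferating control. The E2-like Atg3 was at 6.01 and 5.64 FPKM in these libraries, Atg5 at 6.87 and 5.65 FPKM, Atg12 at 5.32 and 5.67 FPKM, and Atg16l1 at 3.51 and 3.42 FPKM. Of the 5 measured enzymes 4 had a higher knockdown value, and 5 did when abundant genes were centred. The largest log2 ratio in the authors' deposited table among these 5 was that of Atg5, at 0.28 ± 0.49. Sqstm1 and Nbr1, receptors for ubiquitin-marked cargo, had 34.1 and 4.61 FPKM in the knockdown, against 27.0 and 3.95 FPKM in the proliferating control.

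**Figure D2:**
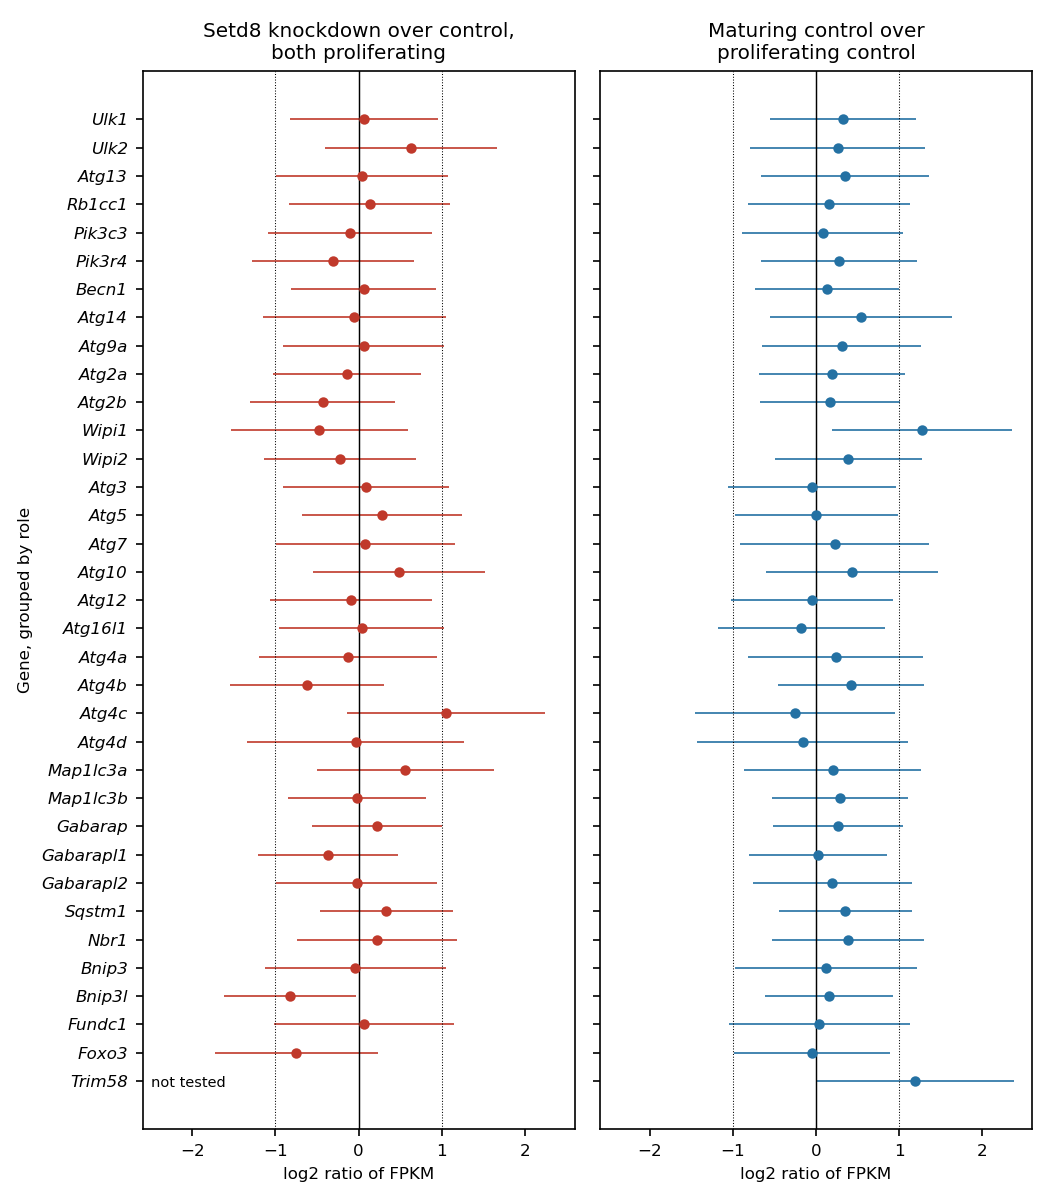
Log2 ratio of FPKM in the authors' deposited table (horizontal axis) for each gene (vertical axis, grouped by role), for the Setd8 knockdown over the proliferating control (left) and the maturing over the proliferating control (right); bars are the 95% interval implied by the authors' test and dotted lines mark 2-fold. The interval of Bnip3l on the left, and those of Wipi1 and Trim58 on the right, stop short of 0, and none of the 3 was called after adjustment, while Trim58, not tested by the authors on the left, has no bar there.

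Maturation was read from control cells after 6 h in the maturation medium. Of 35 tested members, 0 were called in the authors' deposited table, against 1.75% of the 11298 genes tested. At so low a share, a count of 0 among 35 genes does not set the members apart. Without adjustment, 2 members, Wipi1 and Trim58, had a deposited p below 0.05, both higher, against 4.9% of genes tested in either direction and 2.17% that were higher. Small differences pointed mostly one way. Of the 33 measured members, 27 (81.8%) had a higher value in the maturing control, against 52.6% of all measured genes, and the number was 26 or 27 under the other scalings. The median log2 ratio of FPKM + 1 was 0.16 over measured members, or 1.11 times, and 0.014 over all measured genes. For members, a pseudocount of 5 gave 0.10 and one of 0.1 gave 0.20. Each difference but that of Wipi1 was smaller than the model error, and no test of the set was made. No measured member reached 2-fold on this scale, a size found in 1.66% of measured genes, and Wipi1 alone reached a log2 ratio of 0.6, against 5.92% of measured genes.

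Wipi1, which binds the lipid made by the Pik3c3 complex at forming autophagosomes, lies at chr11:109434834-109472703. It stood at 0.905 FPKM in the knockdown, 3.05 FPKM in the maturing control and 1.26 FPKM in the proliferating control, the widest range of any measured member. The maturing control was high and both proliferating libraries were low. For maturation the authors' deposited table gave a log2 ratio of 1.28 ± 0.55, a p of 0.0206 and a q of 0.202. For the knockdown it gave -0.47 ± 0.54. Its paralogue Wipi2, which recruits Atg16l1, stood at 4.37, 6.66 and 5.09 FPKM in the same order of libraries. Wipi2 was thus 2.18 times the level of Wipi1 in the maturing control, against 4.05 times in the proliferating control.

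Trim58, a ubiquitin ligase that in mouse erythroblasts drives loss of dynein and aids enucleation, lies at chr11:58453966-58465906. Its 0.164 FPKM in the maturing control and 0.0720 FPKM in the proliferating control gave a log2 ratio of 1.19 ± 0.61 (q 0.384) in the authors' deposited table. In the knockdown it was at 0.00388 FPKM, where the authors' deposited table marked it as not tested, with a listed log2 ratio of -4.22. The order of the libraries was that of Wipi1, at levels where a few fragments decide the value. Trim10, another TRIM protein needed for mouse red cell maturation, stood at 0.0314 FPKM in the knockdown, 1.91 FPKM in the maturing control and 0.510 FPKM in the proliferating control. It was called lower in the knockdown (q 9.27e-08) and higher in maturation (q 0.00860) in the authors' deposited table. Its values in the knockdown and the proliferating control were below 1 FPKM.

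The proximal promoters of Wipi1 and Trim58 are shown because these 2 members had the lowest deposited p-values in maturation. They are RefSeq sequences of build GRCm38.p6, which differs from the build of the deposited loci, and run from 250 bases before to 50 bases after the start. Wipi1 is chr11:109611340-109611639 on the minus strand and Trim58 is chr11:58640215-58640514 on the plus strand. Capitals mark a GATA motif, searched on both strands as the word AGATAA, the word AGATAG, the word TGATAA and the word TGATAG.
Wipi1: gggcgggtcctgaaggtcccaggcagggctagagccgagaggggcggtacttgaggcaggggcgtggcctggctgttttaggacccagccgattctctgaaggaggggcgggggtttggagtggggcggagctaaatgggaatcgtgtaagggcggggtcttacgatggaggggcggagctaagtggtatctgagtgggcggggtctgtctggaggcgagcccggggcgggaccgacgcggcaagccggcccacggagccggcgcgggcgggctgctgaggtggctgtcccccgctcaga
Trim58: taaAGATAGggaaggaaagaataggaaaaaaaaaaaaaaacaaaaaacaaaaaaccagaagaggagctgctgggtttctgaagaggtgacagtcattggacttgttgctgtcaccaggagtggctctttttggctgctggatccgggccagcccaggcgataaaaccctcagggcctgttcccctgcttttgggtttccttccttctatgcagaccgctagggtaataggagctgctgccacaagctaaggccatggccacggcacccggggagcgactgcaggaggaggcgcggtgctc
The Trim58 window holds AGATAG at base 4, and the Wipi1 window holds no match. Promoters were found for 28 of the 35 members (31 sequences), and 4 of these, in Atg4a, Atg4d, Nbr1 and Trim58, hold a GATA motif, against 29.8% of 32851 promoters. The E-box CACGTG, the core of the lysosomal and autophagy element bound by Tfeb, was in 5 of the 31, those of Atg3, Atg5, Atg7, Atg14 and Bnip3, against 7.15% of all promoters. The FOXO motif GTAAACA was in 0 of the 31, against 3.65% of all promoters. Atg12, Atg16l1, Becn1, Rb1cc1, Pik3c3, Map1lc3a and Bnip3l were not among the 28.

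By role, higher values in the maturing control were found at most steps. All 4 genes of the initiation complex and all 4 of the lipid kinase complex had a higher value in the maturing control. So did all 5 for membrane supply and lipid transfer, all 5 Atg8 genes and all 5 receptors, against 52.6% of all measured genes. The smallest log2 ratios of FPKM + 1 were 0.023 for Gabarapl1 and 0.033 for Fundc1. These counts held under the other scalings, which could alter few signs. The median over all measured genes moved only from 0.014 to between 0.009 and 0.025. Group medians of the log2 ratio of FPKM + 1 lay between 0.16 for the receptors and 0.25 for membrane supply. Nbr1 stood at 5.17 FPKM in the maturing control and 3.95 FPKM in the proliferating control, and Atg14 at 1.70 and 1.17 FPKM. The authors' deposited table gave these 2 genes log2 ratios of 0.39 ± 0.47 and 0.54 ± 0.56. Conjugation enzymes and Atg4 proteases were mixed. Lower values in the maturing control were held by Atg3, Atg12, Atg16l1, Atg4c, Atg4d and Foxo3, each within 0.14 of 0 on the log2 scale of FPKM + 1. Foxo3 was at 5.97 FPKM in the maturing control and 6.18 FPKM in the proliferating control. Erythroid markers were higher in the maturing control for 10 of 11 genes, and their part in these values was not tested.

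**Figure D3:**
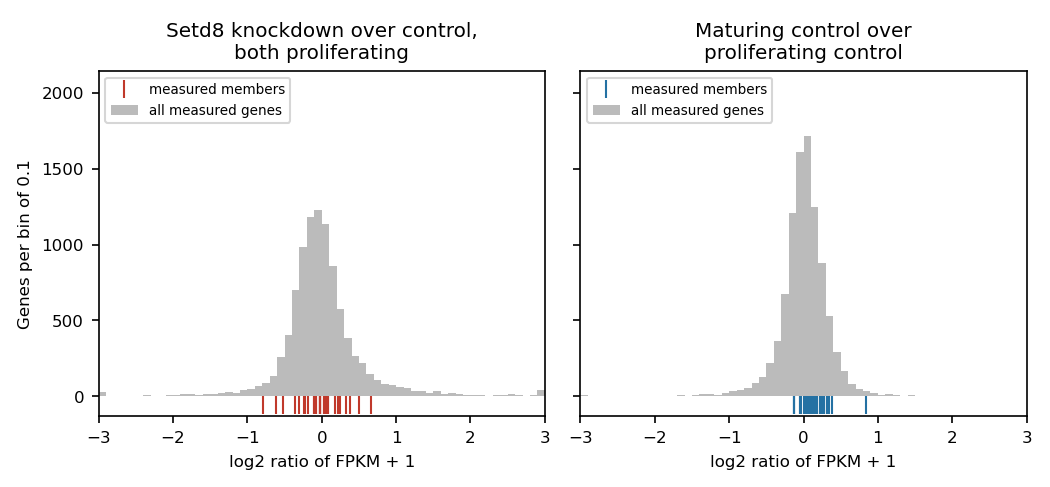
Histograms of the log2 ratio of FPKM + 1 over the 9611 measured genes (grey, genes per bin of 0.1, with values beyond 3 placed in the end bins) and ticks for the 33 measured members, for the Setd8 knockdown over the proliferating control (left) and the maturing over the proliferating control (right). Members lie around the peak on the left, with a median of -0.019, and mostly to the right of 0 on the right, with a median of 0.16.

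The deposited table also set the proliferating knockdown against the maturing control, a pair that differs in both the hairpin and the medium. It held 29 of the 35 members, without Sqstm1, Trim58, Ulk1, Ulk2, Wipi1 and Wipi2. The authors called 0 of the 29, against 11.6% of the 9241 genes tested. Without adjustment 3 members had a deposited p below 0.05, against 18.6% of genes tested. In the authors' deposited table Bnip3l had a log2 ratio of -0.98 ± 0.40 (q 0.154), Atg4b one of -1.05 ± 0.47 (q 0.232) and Atg4c one of 1.30 ± 0.65 (q 0.352). No measured member reached 2-fold on the scale of FPKM + 1, a size found in 9.64% of measured genes. The libraries are those given above, so these ratios add no independent measurement.

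Other genes of the pathway were read from 6 lists of 93 genes, all of them matched to a row, 6 through an older symbol. In the knockdown the authors called 7 of the 88 listed genes they tested (7.95%), close to the 9.05% of all genes tested, and in maturation 2 of 87 (2.3%), close to 1.75%. The 7 were 3 lysosomal genes, 1 receptor and 3 genes for red cell clearance. The separate lists are short, so a list with 0 or 1 call is not set apart from these shares. Of 14 tested partners of the initiation and lipid kinase complexes and of 13 tested fusion genes, 0 were called in either comparison, against the 9.05% and 1.75% of all genes tested. Among other receptors and mitophagy genes, Tex264, a receptor for autophagy of the endoplasmic reticulum, was the 1 gene of 15 tested that was called in the knockdown, and 0 of 15 were called in maturation. It stood at 12.3 FPKM in the knockdown, 1.20 FPKM in the maturing control and 0.883 FPKM in the proliferating control, with a log2 ratio of 3.80 (q 3.71e-10) in the authors' deposited table. Ncoa4, the receptor that delivers ferritin to autophagosomes, stood at 49.0, 42.3 and 35.6 FPKM and was not called. Pink1, the kinase that starts mitophagy of damaged mitochondria, stood at 3.40, 4.82 and 2.81 FPKM, and was not called.

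Lysosomal genes had the highest list median in the knockdown, with a log2 ratio of FPKM + 1 of 0.29 over 17 measured genes, 13 of them higher (14 or 15 under the other scalings), against -0.045 over all measured genes. Of the 18 genes listed, all tested, the authors called 2 higher and 1, below 1 FPKM in every library, lower, which is 16.7% against 9.05% of all genes tested. Hexa, a lysosomal glycosidase subunit, rose to 41.9 FPKM in the knockdown, against 0.982 FPKM in the maturing control and 1.01 FPKM in the proliferating control, with a log2 ratio of 5.37 in the authors' deposited table. Ctsl, a cysteine protease, fell to 0.101 FPKM in the knockdown, against 0.934 FPKM in the proliferating control (q 1.96e-06 in the authors' deposited table). The membrane proteins Lamp1, at 99.5 FPKM in the knockdown, against 99.8 FPKM in the proliferating control, and Lamp2, at 33.0 and 24.7 FPKM, were not called. Hexa is also made by mast cells, whose granules hold its enzyme and whose markers summed to 449.8 FPKM in the knockdown, against 54.2 FPKM in the proliferating control, and their part in this call was not tested. In maturation 0 lysosomal genes were called, with a median of 0.027.

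Among upstream regulators 0 of 18 tested genes were called in the knockdown, against 9.05% of all genes tested. Of the 16 measured, 6 had a higher value as deposited and 8 or 9 under the other scalings, against 44.3% of all measured genes as deposited. Tfeb, a transcription factor of lysosomal genes, stood at 4.71 FPKM in the knockdown, against 2.11 FPKM in the proliferating control, and was not called. Tfe3, of the same list, went the other way, at 6.02 against 7.45 FPKM, and was not called. In maturation Ddit4, an inhibitor of mTORC1 also known as Redd1, fell to 6.36 FPKM in the maturing control, against 17.3 FPKM in the proliferating control, with a q of 0.0399 in the authors' deposited table. It was at 8.43 FPKM in the knockdown, with a q of 0.252 against the proliferating control in the same authors' deposited table. Of 10 measured genes for red cell organelle and protein clearance, 2 were called higher and 1 lower in the knockdown, 3 of 10 tested against 9.05% of all genes tested. Alox15, the lipoxygenase that acts on organelle membranes in reticulocytes, stood at 2.70 FPKM in the knockdown. It was listed at 0 in the maturing control and at 0.00523 FPKM in the proliferating control, with a q of 1.02e-09 in the authors' deposited table. Ube2l6, a conjugating enzyme of the ubiquitin-like protein Isg15, stood at 20.2, 5.55 and 2.33 FPKM in the knockdown, maturing control and proliferating control, with a q of 4.23e-08 for the knockdown in the authors' deposited table. Trim10 was the gene called lower, with its values in the knockdown and the proliferating control below 1 FPKM.

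**Figure D4:**
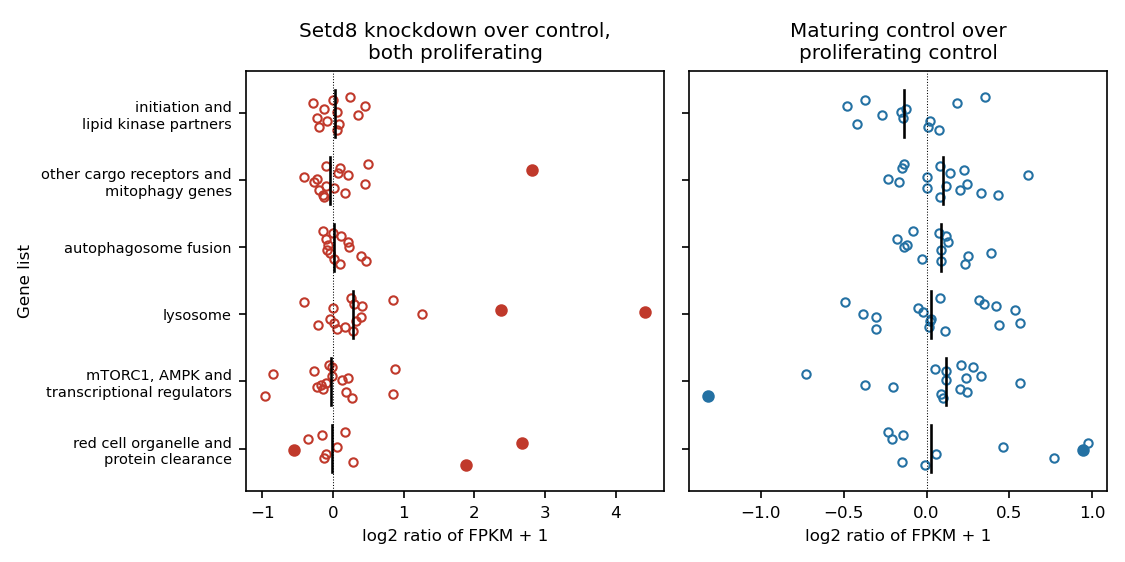
Log2 ratio of FPKM + 1 (horizontal axis) of measured genes in 6 further pathway lists (vertical axis), for the Setd8 knockdown over the proliferating control (left) and the maturing over the proliferating control (right); filled circles were called in the authors' deposited table, open circles were not, and vertical bars are list medians. The filled circles on the right of the left panel include Hexa, Tex264, Ube2l6 and Alox15.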

How the data were processed

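RNA from cultured mouse erythroblasts was sequenced in 4 labelled groups of 1 sample, and 3 libraries were used here. Cufflinks 2.0.2, Cuffdiff, FastQC 0.10.1 and mm9 stand in the submitters' processing notes. For aligner, annotation and strand the sources used here give nothing. The deposited table has 65535 rows in 3 comparisons, the last stopping at Slc2a13, and its FPKM values per library, p-values and q-values are the authors', per the file headers. A deposited log2 ratio and test statistic, used as a score, gave the standard error as their quotient. The library Setd8_73_KD was matched to the proliferating knockdown by target and number.

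Ratios were computed as log2(FPKM + 1), which understates changes of low genes, over genes at 1 FPKM or more in at least 1 library. No test was run, since groups had 1 library. The authors' calls at q of 0.05 were counted. FPKM gives no absolute depth. Among genes below 0.03 FPKM the commonest ratio put the knockdown at 1.43 times and the maturing control at 1.55 times the depth of the proliferating control, and no counting interval was computed. Members and lists were chosen with earlier results of these data known. All members were described, in full for those past a log2 ratio of 0.6, and called genes of other lists were named, except for an item that is not reported here. Ncoa4, Pink1, Lamp1, Lamp2, Tfeb and Tfe3 were chosen after their values were seen. Older symbols came from a RefSeq table used for names. Alternatives were pseudocounts of 0.1 and 5, filters, 3 scalings, the mean, and stricter calls. The counting was tested on simulated data. Python 3.11.15, numpy 2.4.6, pandas 2.3.3, scipy 1.17.1 and matplotlib 3.10.9 were used.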

Additional observations from a re-analysis of the deposited data

How the results depend on the processing

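The count of members called stayed at 0 in each of the 3 comparisons with a q under 0.01, with a size of 2-fold added to the call, and among members at 1 FPKM or more. The median log2 ratio of members in the knockdown, -0.019, changed sign over members at 5 FPKM or more (0.016), with abundant genes centred (0.069), on the TPM scale (0.033) and with equal upper quartiles (0.012), all of them smaller than the model error of 0.50. The medians for maturation and for the knockdown against the maturing control kept their sign in every alternative, at 0.10 to 0.20 and -0.17 to -0.078. The number of members past 2-fold was 0 in the knockdown under each alternative, all of which add a pseudocount. Atg4c came close, at a log2 ratio of 0.991 with a pseudocount of 0.1 and 0.999 on the TPM scale. Without a pseudocount its FPKM ratio was 2.07. In maturation the number past 2-fold became 1 (Wipi1) with a pseudocount of 0.1 and 1 on the TPM scale. For the knockdown against the maturing control it became 2 (Atg4b and Atg4c) with a pseudocount of 0.1 and 1 (Atg4c) on the TPM scale. Over 495 values of single members under other pseudocounts and scalings, 0 moved by more than the model error and 21 changed sign, all with a main ratio of at most 0.078 in size. Setd8 stayed lower in the knockdown, at -1.42 to -1.07. No paired analysis was possible because each group had 1 library. The absolute depth is unknown, and single libraries set the precision.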
